A study of Mus musculus with 8 samples.

Results

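The genes described here are 10 transporters that carry bile acids and other organic anions across the membranes of the hepatocyte, chosen by gene symbol from the 17164 genes of the deposited expression table. All 10 symbols were found, and 9 of them reached the level at which genes were tested. Whole liver of male C57BL/6 mice was profiled by RNA sequencing, with 2 liver samples drawn at random from each of 4 groups of 6 mice. Control mice had saline at 2 weeks of age. Model mice (labelled DEN+CCl4) were given the liver carcinogen diethylnitrosamine (DEN, 0.67%) at that age and the hepatotoxin carbon tetrachloride (CCl4) at 20% in olive oil, started at 8 weeks of age and kept up to the end. The DWYG-M and DWYG-H mice had the same DEN and CCl4 and, from 17 weeks, Diwu Yanggan capsules, a herbal preparation, at 1 or 2 times the clinical equivalent dose. All livers were taken at 22 weeks. The description mentions no carrier oil for the control mice, so the injections and the agents cannot be told apart. Every DWYG liver also carried the DEN and CCl4 injury, so DWYG alone was not measured.

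Bile acids return from the gut in portal blood and are taken up at the sinusoidal (blood-facing) membrane of the hepatocyte, mainly by the sodium-dependent carrier Slc10a1 (NTCP) and by the sodium-independent organic anion carriers of the Slco1 family. They leave into bile through ATP-driven pumps of the canalicular membrane, Abcb11 (the bile salt export pump) for bile acids and Abcc2 (MRP2) for conjugated organic anions. A further set, Abcc3 (MRP3), Abcc4 (MRP4) and the obligate pair Slc51a and Slc51b (OST alpha and beta), returns them to blood, a route known to be raised in cholestatic liver, while uptake carriers are known to be lowered there.

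Promoter sequences were taken from RefSeq (build GRCm38.p6) for 9 of the 10 genes, with 11 start sites in all. Abcc3 had no entry. The 250 bases before the start are shown for the 4 genes that passed the test in model against control. Of the 2 Slc10a1 starts only the upstream one is shown, and the window of the downstream start held none of the patterns below. The part of these patterns in the direction of each gene was not tested. Capitals mark a match, on either strand, to one of 4 short patterns: TGACNNNGC (core of the antioxidant response element bound by NRF2), TTCNNNGAA (core bound by STAT factors, which carry the growth hormone signal), GTTAAT (an element of sites of the liver factor HNF1) and the FXR inverted repeat (GGTCA, any base, TGACC), bound by the bile acid receptor. No match overlapped another.
Slco1a1, chr6:141946963-141947212, minus strand: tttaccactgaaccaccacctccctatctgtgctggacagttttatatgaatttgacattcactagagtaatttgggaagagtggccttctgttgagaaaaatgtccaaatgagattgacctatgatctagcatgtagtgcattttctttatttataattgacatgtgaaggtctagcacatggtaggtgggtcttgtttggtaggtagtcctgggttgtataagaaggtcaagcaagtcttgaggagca
Slc10a1 (upstream start), chr12:80968706-80968955, minus strand: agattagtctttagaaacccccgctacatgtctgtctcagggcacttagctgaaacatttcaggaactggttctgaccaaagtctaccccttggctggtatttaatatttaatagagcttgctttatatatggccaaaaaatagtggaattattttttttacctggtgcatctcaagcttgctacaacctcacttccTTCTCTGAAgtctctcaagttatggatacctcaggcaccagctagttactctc
Slc51b, chr9:65422774-65423023, minus strand: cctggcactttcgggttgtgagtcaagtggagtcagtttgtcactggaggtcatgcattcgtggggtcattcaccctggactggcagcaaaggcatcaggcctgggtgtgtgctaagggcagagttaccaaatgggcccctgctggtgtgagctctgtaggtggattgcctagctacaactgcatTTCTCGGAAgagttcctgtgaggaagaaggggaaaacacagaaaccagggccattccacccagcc
Abcc4 (upstream start), chr14:118706220-118706469, minus strand: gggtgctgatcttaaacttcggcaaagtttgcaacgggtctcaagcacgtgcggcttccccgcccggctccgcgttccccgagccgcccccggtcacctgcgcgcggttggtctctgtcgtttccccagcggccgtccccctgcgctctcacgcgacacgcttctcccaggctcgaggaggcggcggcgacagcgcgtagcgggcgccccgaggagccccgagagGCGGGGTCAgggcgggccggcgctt
Abcc4 (downstream start), chr14:118676932-118677181, minus strand: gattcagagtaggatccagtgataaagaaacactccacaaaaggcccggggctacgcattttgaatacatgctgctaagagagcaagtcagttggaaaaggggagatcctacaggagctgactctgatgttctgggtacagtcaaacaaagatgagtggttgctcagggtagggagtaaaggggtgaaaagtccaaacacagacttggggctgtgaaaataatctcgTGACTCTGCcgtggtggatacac

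Both Abcc4 windows held the antioxidant response element core, TGACTCTGC at 23 bases before the downstream start and GCGGGGTCA (the reverse strand) at 25 bases before the upstream one. Of the other members, Abcc2 held it too (TGACATAGC, 98 bases before the start), and 10.2% of all 32851 promoter windows of this length did. The STAT core stood at 53 bases before the upstream start of Slc10a1 and at 65 bases before the start of Slc51b, and Slco1b2 held it at 206 bases with an HNF1 element at 66 bases. The STAT core was in 7.02% of all windows, the HNF1 element in 6.43% and the FXR repeat in 0.0335%. The Slco1a1 window held none of the 4 patterns, nor did the windows of Slco1a4, Abcb11 and Slc51a or that of the downstream start of Slc10a1.

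The libraries held between 17345627 and 19191382 expected counts. FPKM, reads scaled to gene length and library depth, is used for levels, and tests were run with edgeR on counts scaled by TMM, a scaling that assumes most genes do not change. A gene was called at an adjusted p under 0.05 over the 11606 genes tested. Major urinary protein genes took 15.3% and 15.4% of control counts and 0.563% to 3.5% in the other libraries, so FPKM and TMM-scaled values differ in level between control and the rest. All 80 counts of the members (10 genes in 8 libraries) were whole to within 0.005, so no member count carried a shared fraction of a read. The neighbouring copies Slco1a5 and Slco1a6 had at most 1 and 3 counts in any library. Hepatocyte markers were high in every library (13 genes, summed FPKM 79960 to 126200), with none of the 13 at 0.

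In model against control, the uptake carriers Slc10a1 and Slco1a1 fell, and the sinusoidal exporters Abcc4 and Slc51b rose, so 4 of the 9 tested members were called (2 higher, 2 lower). Over all genes tested 22.2% were called, 15.1% higher and 7.12% lower. The members' median log2 change was -0.15, against -0.01 over all genes tested. Abcc4 and Slc51b were under an FPKM of 1 in both control libraries and reached the tested genes only through the injured groups, where they are higher, so this count and median are given as a description. The other 5 tested members, Slco1a4, Slco1b2, Abcb11, Abcc2 and Abcc3, did not pass, and Slc51a was at 0 in both groups. TMM-scaled values of the groups did not overlap for 6 of the 9 members (2 higher, 4 lower), beside 59.5% of all genes tested, 30.3% higher and 29.2% lower.

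**Figure D1:**
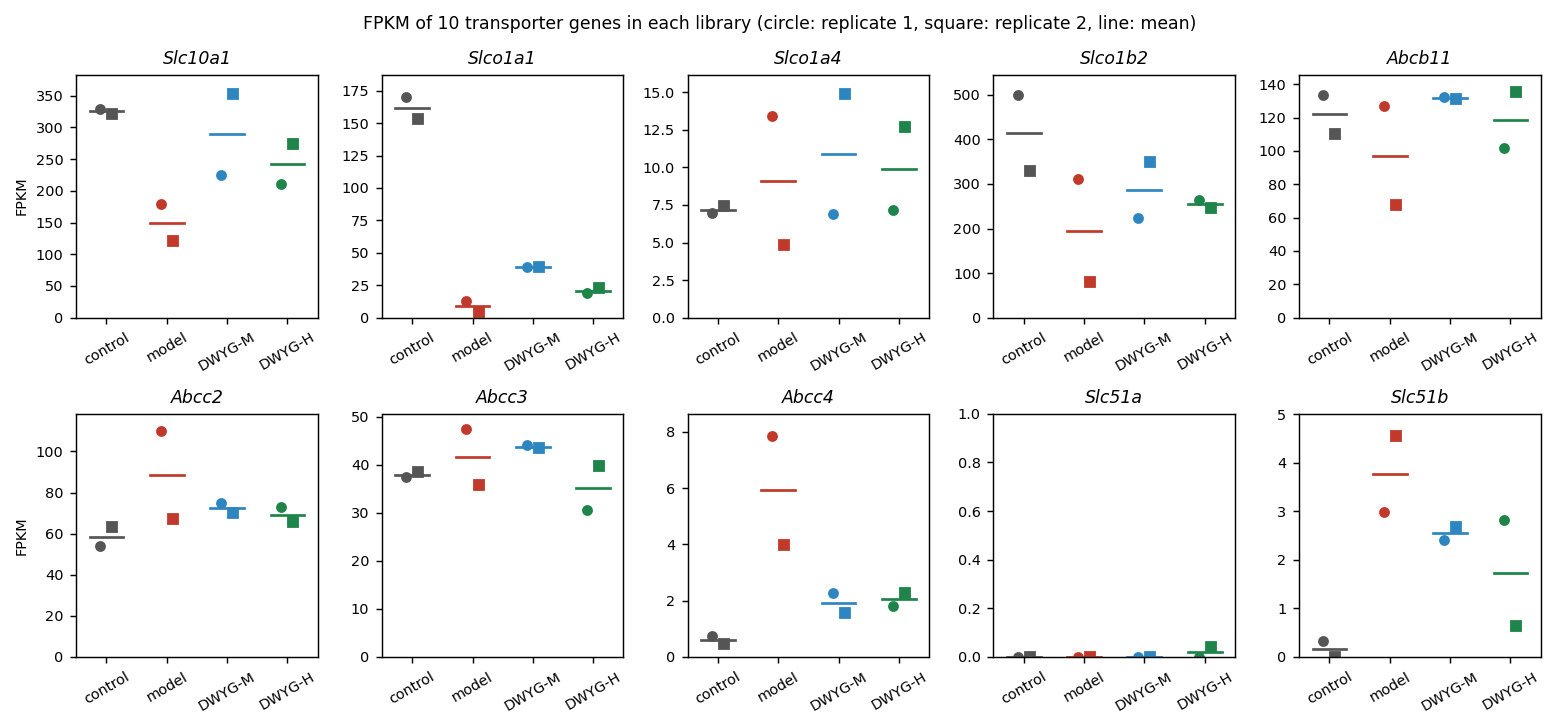
FPKM of the 10 transporter genes in each library, by group (circle replicate 1, square replicate 2, horizontal line the mean), each panel on its own linear axis from 0. Slco1a1 stands at 153 to 170 in control and at or below 39.3 in every other library, and Abcc4 at 0.740 or less in control and 3.99 or more in model.

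Slco1a1 (Entrez 28248), an organic anion and bile acid carrier that predominates in male mouse liver, had an FPKM of 170 and 153 in control and of 13.0 and 4.36 in model. The control libraries were more than 10 times as high as either model library, and the groups lay far apart. The log2 fold change was -4.53 (SE 0.43, 23.2-fold lower, adjusted p = 9.2e-04, n = 2 per group), and the call held under each of the 13 alternatives tried for it, with values from -5.37 to -3.96. Slc10a1 (Entrez 20493), the main bile acid uptake carrier, had an FPKM of 328 and 322 in control and of 179 and 120 in model. Both model libraries were below both control libraries. Slc10a1 fell by 1.41 in log2 (SE 0.27, edgeR adjusted p = 0.00959), and without control replicate 2 the value was -1.40 with adjusted p = 0.0535.

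The remaining uptake carriers did not pass in model against control. Slco1b2 (Entrez 28253), the rodent counterpart of the human OATP1B carriers, had an FPKM of 499 and 329 in control and of 311 and 79.4 in model. The model libraries differed from each other more than the control libraries did. Its log2 fold change was -1.40 (SE 0.52, interval -2.59 to -0.20, adjusted p = 0.0919). Without model replicate 1 it was -2.53 (adjusted p = 0.00488), with DESeq2 adjusted p = 0.00826 (DESeq2 called 24.5% of all genes), and without model replicate 2 it was -0.77. Slco1a4 (Entrez 28250), a carrier of bile acids and digoxin that predominates in female liver, had an FPKM of 6.96 and 7.41 in control and of 13.4 and 4.84 in model. One model library was above and the other below both control libraries. The Slco1a4 value was 0.05 (SE 0.48, interval -1.06 to 1.16, adjusted p = 0.957), and -0.70 without model replicate 1.

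Neither canalicular pump passed in model against control. Abcb11 (Entrez 27413) had an FPKM of 133 and 110 in control and of 127 and 67.5 in model, with 1 model library inside the control range and 1 below it. On TMM-scaled CPM (scaled counts over library size) both model libraries (505 and 309) were below both control libraries (658 and 593), and the log2 fold change was -0.62 (SE 0.27, adjusted p = 0.134). Without model replicate 1 it was -1.0 (adjusted p = 0.027), without model replicate 2 it was -0.31, and it was -0.07 on TPM values. Abcc2 (Entrez 12780) had an FPKM of 54.1 and 63.1 in control and of 110 and 66.9 in model. Model was above control in FPKM, while TMM-scaled values overlapped. Its value was 0.30 (SE 0.23, interval -0.23 to 0.82, adjusted p = 0.396), and it passed on TPM values (0.87, adjusted p = 0.019), where the median of all genes tested moved to 0.50.

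Of the sinusoidal exporters, Abcc4 (Entrez 239273), which pumps bile acids together with glutathione as well as nucleotides and prostaglandins, had an FPKM of 0.740 and 0.460 in control and of 7.86 and 3.99 in model. The lower model library was over 5 times the higher control library. Abcc4 reached the tested genes only through the injured groups, where it is higher, so its test is given as a description. It rose by 2.999 (SE 0.36, 7.99-fold, adjusted p = 0.00181), a call that held under each of its 13 alternatives (2.06 to 3.34). Slc51b (Entrez 330962), the smaller subunit of the OST pair, had 1 and 0 counts in control and 9 and 15 in model, or an FPKM of 0.330, 0, 2.99 and 4.54. Summed over the groups this is a ratio of 18.9 (exact 95% counting interval 3.08 to 776, counting error only). It passed the test (log2 3.98, SE 1.17, adjusted p = 0.0452), with the limit of the FPKM filter given above. Leaving out control replicate 1 (6.49, adjusted p = 0.106), control replicate 2 (3.17, at 0.187) or model replicate 2 (3.51, at 0.154) ended the Slc51b call, as did DESeq2 (adjusted p = 0.06), the replicate block (adjusted p = 0.0621) and a fit of these 2 groups only (adjusted p = 0.0742).

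Abcc3 (Entrez 76408), which exports glucuronides and some bile acids, had an FPKM of 37.5 and 38.4 in control and of 47.4 and 35.8 in model. The model libraries lay on either side of control, and the value was -0.15 (SE 0.18, interval -0.56 to 0.26, adjusted p = 0.587). Its direction turned on FPKM (0.12) and TPM values (0.43). Slc51a (Entrez 106407), the larger OST subunit and the obligate partner of Slc51b, had 0 counts in 7 libraries and 1 count in DWYG-H replicate 2. A count of 0 allows up to 3 counts, or 0.156 to 0.173 CPM in these libraries, so the partner of Slc51b was not detectable at this depth in 7 of 8 livers.

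**Figure D2:**
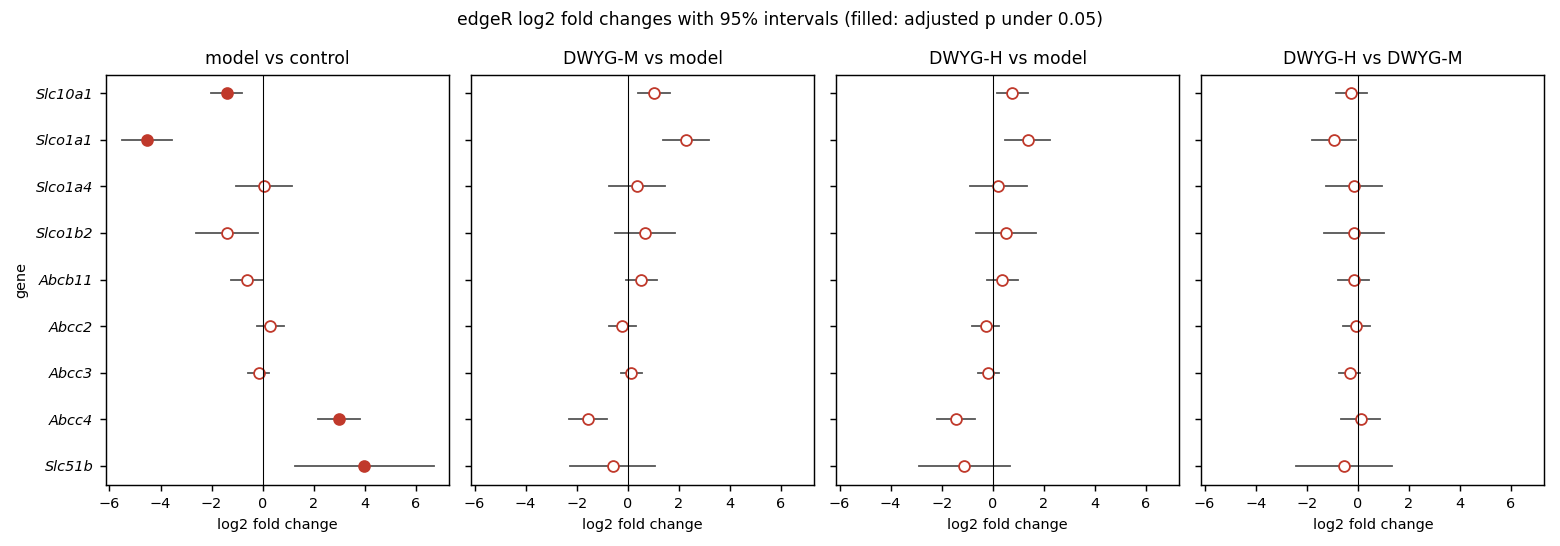
edgeR log2 fold changes (points) with 95% intervals (lines) of the 9 tested members in 4 comparisons, filled where the adjusted p was under 0.05. Filled points appear in model vs control alone among the 4 panels, for Slc10a1, Slco1a1, Abcc4 and Slc51b.

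Ratios between members within a library do not depend on how libraries are scaled. The FPKM ratio of Slco1a1 to Slco1a4 was 24.5 and 20.7 in the control libraries and 0.972 and 0.901 in the model libraries. The male-predominant carrier was thus far above the female-predominant one in control and at about the same level in model. DWYG-M livers had ratios of 5.72 and 2.64, DWYG-H livers of 2.64 and 1.79. Control libraries had an Abcc2 per Abcb11 of 0.405 and 0.572, model libraries 0.867 and 0.991, DWYG-M libraries 0.567 and 0.534 and DWYG-H libraries 0.715 and 0.485. Both model libraries were above every other library in this ratio of the pump for conjugates to the pump for bile acids. The summed FPKM of the 4 uptake genes per that of the 6 export genes was 4.44 and 3.82 in control and 1.75 and 1.17 in model. The DWYG-M libraries had 1.94 and 3.05 and the DWYG-H libraries 2.38 and 2.27, so no library of the injured groups reached the control ratio. Abcc4 stood at 1.97% and 1.20% of Abcc3 in control libraries, at 16.6% and 11.1% in model libraries, at 5.15% and 3.57% for DWYG-M and at 5.94% and 5.77% for DWYG-H. With 2 libraries per group, an exact permutation test of these ratios (two-sided) cannot go below p = 0.333, and none was run.

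**Figure D3:**
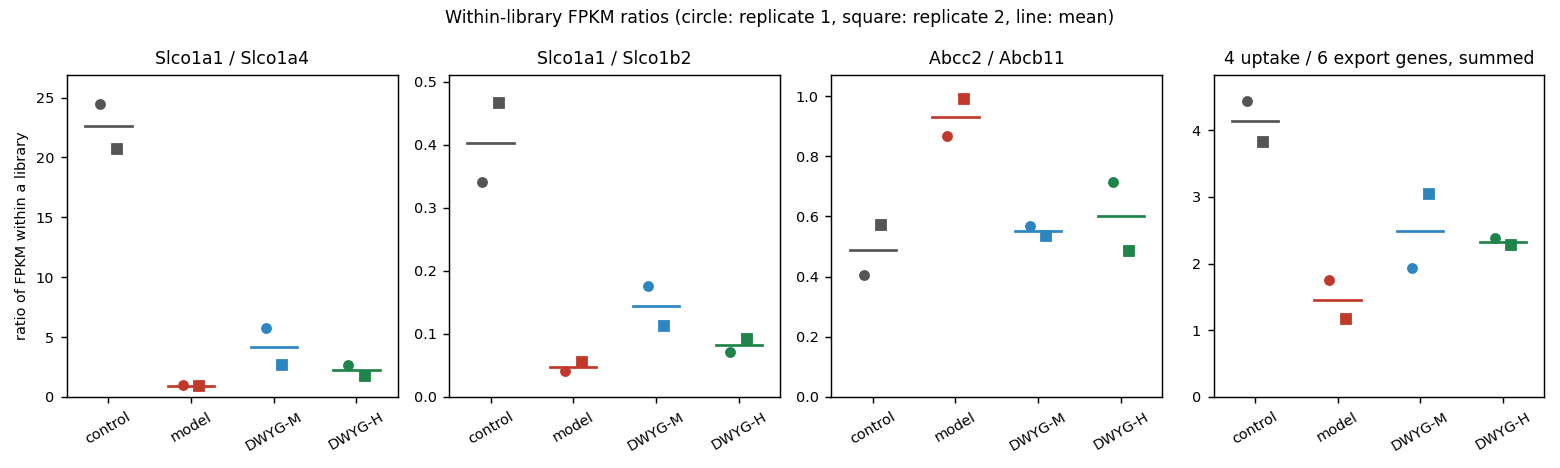
Ratios of FPKM within each library (vertical axes, linear from 0) for 3 gene pairs and for the summed uptake over the summed export genes, by group (circle replicate 1, square replicate 2, line the mean). Slco1a1 per Slco1a4 is 20.7 or more in control and 0.972 or less in model, and Abcc2 per Abcb11 is highest in the model libraries.

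The comparisons of DWYG with model asked whether the treated livers differed from the untreated model. No member passed in DWYG-M against model with edgeR, where 0.00862% of all genes tested (1 gene) did, and none in DWYG-H against model, where 0% did. At an unadjusted p under 0.05 stood 3 members in each, Slc10a1, Slco1a1 and Abcc4, beside 12.6% of all genes in the DWYG-M comparison and 8.49% in the DWYG-H comparison. DESeq2 called these 3 in DWYG-M against model, where it called 1.77% of all genes, and Slco1a1 and Abcc4 in DWYG-H against model, where it called 1.03%. Both comparisons use the same 2 model libraries. TMM-scaled values stood apart from model for 5 members in DWYG-M (4 higher, 1 lower), beside 40.7% of all genes (20.4% higher, 20.2% lower), and for 3 members in DWYG-H (2 higher, 1 lower), beside 34.5% (17.2% higher, 17.3% lower). The median of the tested members was 0.36 and 0.22 in the DWYG-M and DWYG-H comparisons, against -0.02 and -0.01 over all genes.

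Slco1a1 had an FPKM of 39.3 and 39.3 in DWYG-M and of 18.8 and 22.7 in DWYG-H, all above the model libraries and far below control. Against model the log2 values were 2.28 (SE 0.39, 4.87-fold, adjusted p = 0.213) for DWYG-M and 1.36 (SE 0.38, adjusted p = 0.388) for DWYG-H. The DWYG-M value passed without model replicate 1 (3.14, adjusted p = 0.00862), without model replicate 2 (1.75, adjusted p = 0.0318) and with DESeq2 (adjusted p = 3.4e-07). The DWYG-H value passed without model replicate 1 (2.21, adjusted p = 0.0278) and with DESeq2 (adjusted p = 0.02), and it was 0.83 without model replicate 2. Slc10a1 had an FPKM of 225 and 353 in DWYG-M and of 210 and 274 in DWYG-H. Each was above both model libraries, and DWYG-M replicate 2 was also above control in FPKM. On TMM-scaled CPM, DWYG-M replicate 2 (467) was below both control libraries (481 and 514). The values against model were 1.03 (SE 0.26, adjusted p = 0.252; DESeq2 adjusted p = 0.0142) and 0.77 (SE 0.26, adjusted p = 0.487).

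Abcc4 had an FPKM of 2.27 and 1.55 in DWYG-M and of 1.82 and 2.29 in DWYG-H, below both model libraries and above both control libraries. Against model the values were -1.56 (SE 0.33, adjusted p = 0.213) and -1.45 (SE 0.32, adjusted p = 0.293), and DESeq2 gave adjusted p = 0.00281 and adjusted p = 0.00958. Without model replicate 1 they were -1.10 and -0.998. Slc51b had 7 and 8 counts in DWYG-M and DWYG-H had 8 and 2, with values of -0.58 (SE 0.72) and -1.12 (SE 0.77) against model. Both intervals spanned 0 (-2.25 to 1.09 and -2.89 to 0.66).

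The canalicular pumps and the remaining carriers gave values whose intervals spanned 0 in both DWYG comparisons with model. Abcb11 had an FPKM of 132 and 131 in DWYG-M and of 102 and 135 in DWYG-H, and gave 0.52 (interval -0.09 to 1.13) and 0.37 (interval -0.24 to 0.98). The DWYG-M libraries were close to each other and above both model libraries. Abcc2 had an FPKM of 74.9 and 69.9 in DWYG-M and of 72.9 and 65.6 in DWYG-H, with 3 of the 4 inside the wide model range, and gave -0.21 (interval -0.73 to 0.32) and -0.27 (interval -0.80 to 0.26). Without model replicate 1 the Abcc2 values were 0.08 and 0.01. Slco1b2 had an FPKM of 223 and 350 in DWYG-M and of 265 and 245 in DWYG-H, and gave 0.67 (interval -0.51 to 1.85) and 0.50 (interval -0.68 to 1.68). Without model replicate 2 these were 0.04 and -0.13, and without model replicate 1 they were 1.81 and 1.64. Slco1a4 had an FPKM of 6.87 and 14.9 in DWYG-M and of 7.13 and 12.7 in DWYG-H, with replicate 2 the higher in both, and gave 0.36 and 0.22. Abcc3 had an FPKM of 44.1 and 43.4 in DWYG-M and of 30.7 and 39.7 in DWYG-H, and gave 0.14 and -0.17.

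Between the doses, no member passed in DWYG-H against DWYG-M with edgeR or DESeq2, where 0% and 0.0431% of all genes did. Slco1a1 was lower at the higher dose in both libraries, at -0.92 (SE 0.37, interval -1.78 to -0.06, adjusted p = 1). It was the 1 member with an unadjusted p under 0.05, beside 1.66% of all genes. Abcc3 was also lower in both DWYG-H libraries by TMM-scaled counts (-0.32, interval -0.73 to 0.095). These 2 members without overlap, both lower, stand beside 26.7% of all genes (13.2% higher, 13.5% lower). Intervals of the other 7 tested members spanned 0, the widest being that of Slc51b (-2.43 to 1.35) and the narrowest of these that of Abcc2 (-0.59 to 0.46).

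Against control, 1 uptake carrier was called in both DWYG groups. Slco1a1 was lower in DWYG-M (-2.25, SE 0.39, adjusted p = 0.0189) and in DWYG-H (-3.17, SE 0.40, adjusted p = 0.00533), where 4.95% and 7.69% of all genes tested were called, 0.603% and 1.09% lower. The DWYG-M call was lost without any 1 of the 4 libraries compared (adjusted p 0.0735 to 0.121, values -2.29 to -2.24), and the DWYG-H call held under each of its 13 alternatives. Abcc4 was higher in DWYG-H (1.55, SE 0.35, adjusted p = 0.038), where 6.59% were called higher, and gave 1.44 (adjusted p = 0.0616) in DWYG-M, where 4.35% were. The limit of the FPKM filter given above holds for Abcc4 in both. Its DWYG-H call was lost without any 1 of the 4 libraries (adjusted p 0.0945 to 0.231) and on log2(FPKM + 1) (0.93, adjusted p = 0.077). In DWYG-M, Abcc4 passed with DESeq2 (which called 8.68% of all genes), without the FPKM filter, with the 2 groups alone and on 2 of 3 log scales (adjusted p 0.00282 to 0.049). Slc51b gave ratios to control of 12.6 (counting interval 1.94 to 531) in DWYG-M and 8.54 (1.21 to 371) in DWYG-H, counting error only. It was called in neither with edgeR. The log2 values were 3.40 (interval 0.50 to 6.30, adjusted p = 0.19) in DWYG-M and 2.865 (interval -0.23 to 5.96, adjusted p = 0.245) in DWYG-H. With limma, Slc51b passed in DWYG-M on all 3 log scales (adjusted p 0.0219 to 0.0484) and in DWYG-H on log2(TPM + 1) alone (adjusted p = 0.0456). Its low counts and the limit of the FPKM filter hold for these calls. Slc10a1 gave -0.38 (interval -0.99 to 0.22) and -0.64 (interval -1.25 to -0.04, adjusted p = 0.185), and Slco1b2 gave -0.73 and -0.90.

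By mean FPKM the order of groups differed between members, and overlap here is that of FPKM values. Slco1a1 ran control (162), DWYG-M (39.3), DWYG-H (20.8), model (8.69), with no neighbours overlapping. Slc10a1 ran in the same order (325, 289, 242, 149), where control overlapped DWYG-M and DWYG-M overlapped DWYG-H. Slco1b2 had that order too (414, 286, 255, 195), with every pair of neighbours overlapping. On TMM-scaled values, every DWYG library was below both control libraries for Slc10a1 and Slco1b2. Abcc4 ran model (5.93), DWYG-H (2.06), DWYG-M (1.91), control (0.600), where only the DWYG groups overlapped. Slc51b ran model (3.77), DWYG-M (2.54), DWYG-H (1.72), control (0.165), again with overlap of the DWYG groups alone. On TMM-scaled CPM, model overlapped both DWYG groups for Slc51b. Model replicate 1 (0.4322) was below DWYG-M replicate 2 (0.4324) and DWYG-H replicate 1 (0.4558). Abcc2 ran model (88.4), DWYG-M (72.4), DWYG-H (69.3), control (58.6), and of its neighbours only DWYG-H and control did not overlap. On TMM-scaled values both DWYG groups overlapped control for Abcc2, with log2 values of 0.09 in DWYG-M and 0.02 in DWYG-H. For Abcb11, Abcc3 and Slco1a4 every pair of neighbours overlapped, so no order can be read. Among members, Slco1b2 and Slc10a1 had the highest mean FPKM in each group.

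Model replicate 2 stood apart from model replicate 1 in these genes. It was lower for 8 of the 9 tested members, with a median gap of -0.71 (log2 CPM), where 50.2% of all genes tested were lower and the median gap was -0.001. Slco1b2 had the widest gap, -1.77. In control, DWYG-M and DWYG-H, 5, 4 and 3 of the 9 members were lower in replicate 2, with median gaps of -0.02, 0.002 and 0.29. In whole liver, fewer cells of a type and less RNA per cell cannot be told apart. Hepatocyte markers summed to an FPKM of 82010 in model replicate 1 and 126200 in model replicate 2, the opposite order to these members, and Alb, the largest part of that sum, took 6.86% and 10.5% of counts. The lists of bile acid synthesis (4056 and 2168), other bile transporters (594 and 389) and transporter regulators (706 and 542.5) ran in the members' order. The list of proteins that anchor transporters in the membrane did not, with 254 and 271.

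**Figure D4:**
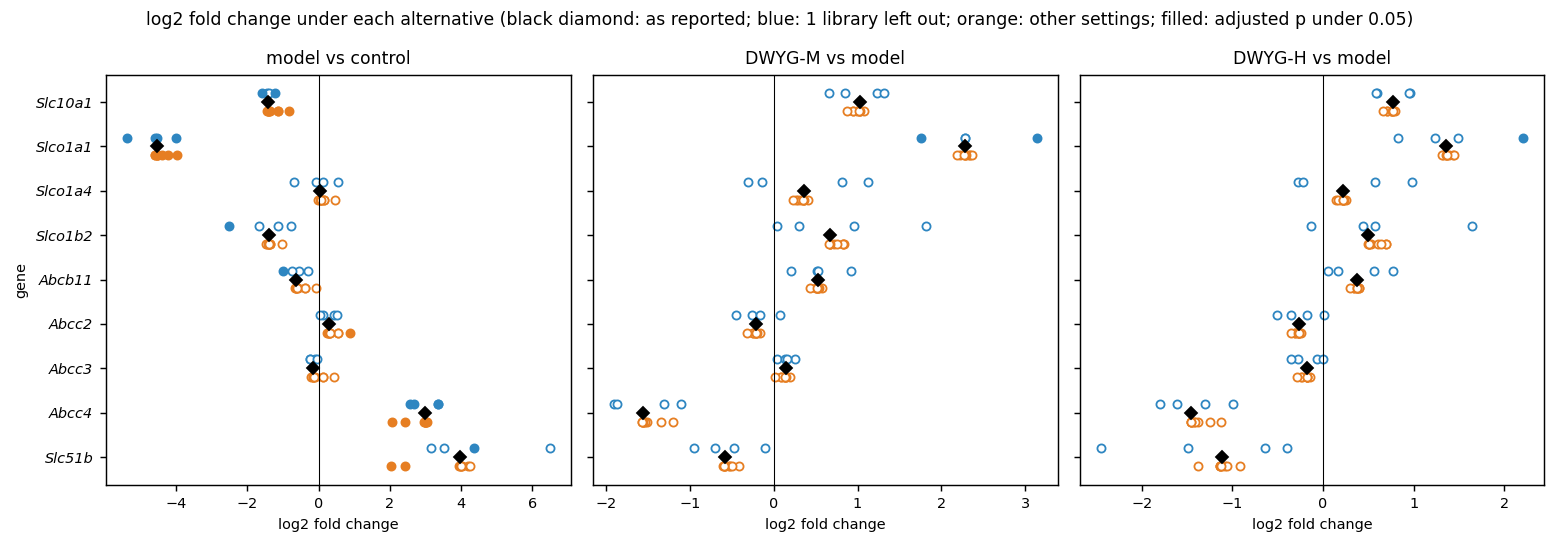
log2 fold change of the 9 tested members in 3 comparisons under each alternative (horizontal axes), with black diamonds as reported, blue points for 1 library left out, orange points for other settings, and filled points for an adjusted p under 0.05. All points of Slco1a1 and Abcc4 are filled in model vs control, while in the DWYG comparisons their filled points are few.

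Markers of other cells moved beside the members. Cholangiocytes, which line the bile ducts, also carry bile acid transporters. The summed FPKM of 12 of their markers ran from 51.8 to 54.4 over control libraries, 337 to 474 over model, 199 to 231 over DWYG-M and 247 to 292 over DWYG-H. In model against control 7 of 9 tested rose and 0 fell, beside 15.1% and 7.12% of all genes, with a median of 2.31, among them Spp1 (3.08), Epcam (2.73), Krt7 (3.44) and Pkhd1 (1.65). Mean control FPKM was under 1 for Epcam (0.88), Pkhd1 (0.39), Krt7 (0.295), Krt19 (0.95) and Muc1 (0.44). These reached the tested genes only with injured libraries, where they are higher, so this count and median are given as a description. The 10 stellate and fibroblast markers summed to 101 in both control libraries, 336 and 366 in model, 220 to 277 in DWYG-M and 219 to 240 in DWYG-H. In model against control 6 of 10 rose, beside 15.1% of all genes, such as Col1a1 (4.82), Col1a2 (3.995), Col3a1 (3.59) and Lum (3.15). Mean control FPKM was under 1 for Col1a1 too (0.75), with the same limit of the FPKM filter. These lists rank the groups as Abcc4 and Slc51b do at the ends, model highest and control lowest, and their part in those rises was not tested. Of 13 tested hepatocyte markers 0 rose and 1 fell, Apoa2 (-1.09), with a median of -0.02, while the Apoa2 call ended when either control library or model replicate 2 was left out (at most 0.0913 adjusted), and Hpd (-1.06) and Ttr (-0.66) did not pass.

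Markers of blood cells and vessels were also read in model against control, where 15.1% of all genes tested were called higher and 7.12% lower. Of 10 macrophage markers 3 rose, Gpnmb (8.07), Trem2 (4.48) and Cd68 (1.00), and Timd4 fell (-2.56). Gpnmb (0.08) and Trem2 (0.445) had a mean control FPKM under 1, with the limit of the FPKM filter given above. Of 4 tested neutrophil markers S100a9 (3.496), S100a8 (3.23) and Csf3r (1.28) rose and Retnlg gave 3.41 (adjusted p = 0.057), with a summed FPKM of 8.48 to 13.0 over control libraries and 57.1 to 201 over model libraries and with Ly6g at 0 in 4 libraries and Retnlg at 0 in 1. Of 3 tested lymphocyte markers Jchain rose (2.26), and Cd79a (0.69) and Nkg7 (0.67) did not pass. Of 8 endothelial markers Vwf rose (0.95), and Lyve1 (0.75), Pecam1 (0.47) and Cdh5 (0.42) did not pass. Vwf also had a mean control FPKM under 1 (0.845), with the same limit. The S100a9, S100a8, Csf3r and Vwf calls were each lost without at least 1 library, control replicate 2 among them (adjusted p up to 0.15).

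In DWYG-M and DWYG-H against control the cholangiocyte marker Spp1 (2.21 and 2.57), the macrophage markers Gpnmb (6.86 and 7.78) and Trem2 (3.53 and 3.89) and the fibroblast markers Col3a1 (2.12 and 2.32), Col1a2 (2.45 and 2.79) and Lum (2.56 and 2.57) were called higher. So were the plasma cell gene Jchain (1.89 and 2.70) and the neutrophil gene S100a9 (3.92 and 3.16), while Timd4 was called lower (-2.25 and -1.75). Pkhd1 (1.10) and S100a8 (3.70) were called in DWYG-M and did not pass in DWYG-H. Col1a1 (2.99 and 3.48) and Pdgfrb (1.73 and 1.37) were called higher in both groups too, and Cd68 (0.72) in DWYG-H. Without at least 1 of the libraries compared, 10 of the 11 calls named before Col1a1 were lost in DWYG-M, Gpnmb being the exception, and 5 of 9 in DWYG-H, those of Spp1, Timd4, Col1a2, Lum and S100a9. Against model, 0 of 57 tested markers passed with edgeR in DWYG-M or DWYG-H, where 22 and 15 had an unadjusted p under 0.05 (12.6% and 8.49% of all genes) and DESeq2 called 8 and 7 (1.77% and 1.03% of all genes), Epcam, Krt7, Krt19 and Muc1 of cholangiocytes and Col1a2 and Col3a1 of fibroblasts in both. The part of these cells in the values of Slco1a1 and Abcc4 against control and against model was not tested. Against control, the limit of the FPKM filter also holds here for Gpnmb, Trem2, Pkhd1 and Col1a1. Against model it bears on Muc1, with a mean FPKM of 2.64 in model, 0.76 in DWYG-M and 0.59 in DWYG-H. The DESeq2 calls of Muc1 are thus given as a description.

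Other transporters of bile and drugs were read next in model against control. Of 17 tested, 3 rose and 5 fell, beside 15.1% and 7.12% of all genes, with a median of -0.49. Abcb1a, a drug efflux pump, rose by 3.46 (SE 0.39, edgeR adjusted p = 0.00163), its mean FPKM going from 0.275 to 3.69. Abcc5, an exporter of cyclic nucleotides, rose by 2.73 (0.850 to 6.06), and Abcc1, a widely expressed exporter of glutathione conjugates, by 1.31 (0.370 to 1.18). All 3 were under an FPKM of 1 in both control libraries, as Abcc4 was, and reached the tested genes only through injured groups, Abcc1 through the model libraries alone. The count and median of this list are therefore given as a description. The same limit holds for Abcb1a and Abcc5 in the DWYG groups against control, and for Abcc1 in the DWYG groups against model. Abcg2, a canalicular exporter of drugs and sulphates, fell by 0.89 (63.0 to 41.4), a call not made when control replicate 1, control replicate 2 or model replicate 2 was left out (adjusted p 0.0771 to 0.123), nor with only 2 groups fitted or on FPKM and TPM values. The Abcc1 call needed both control libraries (adjusted p 0.0541 and 0.0775 with 1 of them). In DWYG-M and DWYG-H against control Abcb1a (2.83 and 2.45) and Abcc5 (2.02 and 1.96) were called, and leaving out either control library ended each of these 4 calls (adjusted p 0.0593 to 0.117). Abcc5 in DWYG-M and both genes in DWYG-H also lost theirs without replicate 1 of the DWYG group (adjusted p 0.053 to 0.0585). Of the 17, 0 passed with edgeR in DWYG-M or DWYG-H against model, where 7 and 6 had an unadjusted p under 0.05 (12.6% and 8.49% of all genes) and DESeq2 called 1 in each, the cation extruder Slc47a1.

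Enzymes of bile acid synthesis and conjugation fell in 6 of 14 cases and rose in 0 in model against control, beside 7.12% and 15.1% of all genes, with a median of -0.93. They included the sterol hydroxylases Cyp7b1 (-4.59, mean FPKM 317 to 16.3) and Cyp8b1 (-2.91, 179 to 29.5), the steroid dehydrogenase Hsd3b7 (-1.16) and the thiolase Scp2 (-1.23). The Hsd3b7 and Scp2 calls needed both control libraries and model replicate 2 (adjusted p 0.0754 to 0.101 with any of these left out), and neither passed on TPM values. In DWYG-M against control Cyp7b1 (-2.25) and Cyp8b1 (-2.04) were called, and in DWYG-H Cyp7b1 (-3.24), though each DWYG-M call ended when either control library or DWYG-M replicate 1 was left out (adjusted p 0.0974 to 0.229) and that in DWYG-H without control replicate 2, DWYG-H replicate 1 or DWYG-H replicate 2 (adjusted p 0.0575 to 0.0729). Against model, 0 of the 14 passed with edgeR in either DWYG group, 4 and 5 had an unadjusted p under 0.05 in DWYG-M and DWYG-H (12.6% and 8.49% of all genes), and DESeq2 called Cyp7b1 in DWYG-M and Cyp8b1 in DWYG-H.

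Of 16 nuclear receptors and transcription factors known to act on transporter genes, 1 rose and 2 fell in model against control, with a median of -0.39. The 3 called stand beside 22.2% of all genes. Nfe2l2, which encodes NRF2, rose by 1.04 (SE 0.18, adjusted p = 0.0064, mean FPKM 24.3 to 60.6). The xenobiotic receptor Nr1i3 (CAR) fell by 1.42 and the hepatocyte factor Cebpa by 1.09, and both calls were lost without either control library (adjusted p 0.0907 to 0.14) and on FPKM and TPM values, that of Cebpa also without either model library. The sterol receptor Nr1h3 gave -0.51 (adjusted p = 0.0649). In DWYG-H against control Nfe2l2 (0.82) and the estrogen receptor Esr1 (0.81) were called, and each call was lost without any 1 of the 4 libraries (adjusted p 0.0728 to 0.229). Of 10 proteins that anchor transporters in the membrane, 2 rose and 0 fell, with a median of -0.08, beside 15.1% and 7.12% of all genes. They were the cytoskeletal linkers Ezr (2.13, mean FPKM 1.86 to 9.76) and Msn (0.89), while Rdx, the linker that predominates in hepatocytes, gave -0.41 (adjusted p = 0.154) and the vesicle motor Myo5b gave 0.45 (adjusted p = 0.109). Ezr (1.31) and Msn (0.62) were also called in DWYG-H against control. The Msn call there was lost without any 1 of the 4 libraries, and that of Ezr without either control library or DWYG-H replicate 2 (adjusted p 0.0679 to 0.201 for these). Against model, 0 of the 10 passed with edgeR in DWYG-M or DWYG-H, where 2 and 1 had an unadjusted p under 0.05 (12.6% and 8.49% of all genes), and DESeq2 called Ezr in DWYG-M and 0 in DWYG-H. For the 16 receptors and factors 0 passed with edgeR or DESeq2 in either, where 3 and 1 had an unadjusted p under 0.05.

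Genes with the most similar pattern over the 8 libraries were sought for 4 members among 6955 other tested genes with a mean FPKM of at least 5. Likeness was the root mean square difference of log2 CPM centred on each gene's mean, so it carries the same library scaling for all genes. For Slco1a1 they were the glutamate transporter Slc1a2 (0.28), the pheromone carrier Mup2 (0.40), whose counts are uncertain among close Mup copies, and the anion transporter Slc22a28 (0.42), beside a standard deviation of 1.85 of Slco1a1 itself. For Slc10a1 they were the mitochondrial dimethylglycine dehydrogenase Dmgdh (0.07), the secreted WNT inhibitor Notum (0.08) and the peroxisomal hydroxylase Phyh (0.11), beside 0.60. For Abcb11 they were the hyaluronidase Hyal1, the glucuronosyltransferase Ugt1a6a and Cd300lg (each 0.10), beside 0.35. For Slc51b they were Uap1l1 (0.38), Lratd2 (0.39) and the serpin Serpinb6a (0.39), beside 1.048, and its low counts limit this value.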

How the data were processed

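Liver RNA was sequenced in 8 libraries, 2 for each of 4 groups. The members and gene lists were chosen with earlier results of these data known. Reads were placed on GRCm39, per the submitters' processing notes. The sources used here name no aligner, counting tool, annotation or strand setting. In the deposited table the authors gave read counts per gene and library, here taken to be expected counts since 89.8% to 91.5% were whole. FPKM and TPM are the authors' values, per the file headers, TPM summing to 1000000 per library. The normalized read counts (unit signal) and group averages that the authors also deposited were left out.

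Expected counts were rounded and tested with edgeR 4.0.16 (quasi-likelihood, TMM, R 4.3.3) for the 11606 genes that reached an FPKM of 1 in 2 or more libraries, in a model of 4 groups with 4 residual degrees of freedom. Benjamini-Hochberg adjustment ran over these genes. Standard errors come from the F statistic and intervals are 95%. Alternatives used DESeq2 1.42.0, limma 3.58.1 on log2 values, other scalings and filters, and left out each library. Scripts were tested on simulated data. The 2 liver samples of a group were drawn at random, but separate mice are not named, so p-values measure the spread between these samples. Named genes were all 10 members, up to 4 of each of 11 lists by smallest p in model vs control, up to 3 called ones elsewhere, and the 3 nearest patterns of 4 members. Tf and Nherf1 were not matched by symbol, and values of 2 listed marker genes are not reported here. Antisense and overlapping genes are uncertain.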

Additional observations from a re-analysis of the deposited data

How the results depend on the processing

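In model against control, Slco1a1 and Abcc4 kept their calls under each of 13 alternatives, while the number of members called higher was 1 with the replicate block, with DESeq2 and with only the 2 groups compared. The Abcc4 call has the limit of the FPKM filter given above. Of 117 member values per comparison, 100 kept direction and side of the threshold in model against control, 109 in DWYG-M against model, 110 in DWYG-H against model, 108 between doses, 93 in DWYG-M against control and 106 in DWYG-H against control. The cause of each change was not tested. With 2 libraries per group and 4 residual degrees of freedom, intervals are wide, and Slc51a and Slc51b are limited by counts of 15 or fewer.

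TMM left the median gene of model against control at -0.013, and log2(FPKM + 1), log2(FPKM + 0.1) and log2(TPM + 1) moved it to 0.211, 0.249 and 0.498. Calls were 68.0% higher with TMM and 91.7%, 92.1% and 97.5% higher on these scales. Genes called in model against control were 5448 on TPM and 1669 with only 2 groups, against 2582. In DWYG-M against model the calls were 2, 3 and 2 on the FPKM + 1, FPKM + 0.1 and TPM scales and 206 with DESeq2 (2 members higher, 1 lower), against 1. In DWYG-H against model they were 4 with no filter, 3 on FPKM + 1, 1 on TPM and 120 with DESeq2 (1 member higher, 1 lower), against 0. DESeq2 called 5 genes between doses. In DWYG-M against control the calls were 1069 on FPKM + 0.1, 2820 on TPM and 1007 with DESeq2, against 575. There 1 member was higher with no filter, with DESeq2 and with only 2 groups (Abcc4) and on FPKM + 1 (Slc51b). On FPKM + 0.1 and TPM 2 were higher (Abcc4 and Slc51b). In DWYG-H against control the calls were 1431 on FPKM + 0.1, 3369 on TPM and 1385 with DESeq2, against 892, with 0 members higher on FPKM + 1 and 2 on TPM.

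Leaving out each library in turn gave calls of 812 to 2845 in model against control, 1 to 29 in DWYG-M against model, 0 to 17 in DWYG-H against model, 0 to 2 in DWYG-H against DWYG-M, 39 to 430 in DWYG-M against control, 77 to 423 in DWYG-H against control. Members called higher ranged 1 to 2 in model against control, 0 to 1 in DWYG-M against model, 0 to 1 in DWYG-H against model, 0 each time in DWYG-H against DWYG-M, 0 each time in DWYG-M against control, 0 each time in DWYG-H against control, and members called lower ranged 1 to 4 in model against control, 0 each time in DWYG-M against model, 0 each time in DWYG-H against model, 0 each time in DWYG-H against DWYG-M, 0 each time in DWYG-M against control, 1 each time in DWYG-H against control.

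Directions turned under these settings. In model against control the values were Slco1a4 -0.002 with no filter, Abcc3 0.116 on log2(FPKM + 1), Abcc3 0.118 on log2(FPKM + 0.1) and Abcc3 0.435, Nr1h3 0.076 and Rdx 0.182 on log2(TPM + 1). In DWYG-M against control the values were Abcc3 0.016 with upper-quartile factors, Abcb11 0.116 and Abcc3 0.2 on log2(FPKM + 1), Abcb11 0.116 and Abcc3 0.205 on log2(FPKM + 0.1) and Slc10a1 0.047, Abcb11 0.365 and Abcc3 0.448 on log2(TPM + 1). In DWYG-H against control the values were Abcb11 0.226 and Abcc3 0.149 on log2(TPM + 1). With 1 library left out, some values took both signs. In model against control the ranges were Slco1a4 -0.697 to 0.543 and Cd79a -0.209 to 1.264. In DWYG-M against model the ranges were Abcc2 -0.445 to 0.077 and Slco1a4 -0.309 to 1.124. In DWYG-H against model the ranges were Abcc2 -0.508 to 0.01, Slco1a4 -0.275 to 0.978 and Slco1b2 -0.131 to 1.641. In DWYG-H against DWYG-M the ranges were Slc10a1 -0.553 to 0.106, Slco1a4 -0.595 to 0.528, Slco1b2 -0.456 to 0.193, Abcc4 -0.149 to 0.416, Abcb11 -0.358 to 0.027, Abcc2 -0.158 to 0.025 and Slc51b -1.883 to 0.181. In DWYG-M against control the ranges were Abcc2 -0.077 to 0.245, Abcc3 -0.086 to 0.048 and Slco1a4 -0.261 to 0.862. In DWYG-H against control the ranges were Abcc2 -0.14 to 0.181 and Slco1a4 -0.172 to 0.594.

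Samples with the same replicate number are not linked by the labels. Their deviations from the group means correlated between -0.143 and 0.255 over the 6 pairs of groups. As each group has only 2 libraries, these values cannot settle whether the numbers pair the samples. With the replicate block 2682 genes were called in model against control, 507 in DWYG-M and 856 in DWYG-H against control, and 0 in DWYG-M against model, DWYG-H against model and between doses. Of the other named genes, 820 of 988 values kept direction and side, 135 lost a call, 30 gained one and 3 turned.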

Other observations

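Relatives of these transporters were read after their values were seen. Of 21 other measured Slco, Abcc and Slc10a genes, 13 were tested. In model against control 3 rose (Abcc1, Abcc5 and Slc10a6) and 2 fell (Abcc6 and Slco2b1), beside 15.1% and 7.12% of all genes tested. The 3 that rose were under an FPKM of 1 in both control libraries. They reached the tested genes only through injured groups, so this count is given as a description. Slc10a6, a carrier of sulphated steroids, had an FPKM of 0.04 and 0.09 in the control libraries and of 1.45 and 0.95 in the model libraries. The DWYG-M libraries had 1 and 0.43 and the DWYG-H libraries 0.14 and 0.17. With 3 counts in control and 78 in model the ratio was 20.4 (exact 95% counting interval 6.74 to 101, counting error only). For Slc10a6 edgeR gave 4.25 (SE 0.69, adjusted p = 0.00532), a call held under each of its 13 alternatives. Slc10a6 reached an FPKM of 1 only in model replicate 1 and DWYG-M replicate 1, so this test is given as a description. Its model libraries were above every control and DWYG-H library. Slc10a2, the bile acid uptake carrier of ileum and bile duct cells, had an FPKM of 7.12 and 5.71 in the control libraries, of 28.7 and 9.38 in the model libraries, of 14.7 and 10.4 at the lower DWYG dose and of 18.4 and 13.9 at the higher. All 6 libraries of the injured groups were above both control libraries, and model against control gave 1.26 (SE 0.42, edgeR adjusted p = 0.0665), which passed with DESeq2, on TPM, with the replicate block and with no FPKM filter. The Slc10a2 value was 1.80 without model replicate 2, and the lowest over the alternatives was 0.396. Abcc12, which did not reach the tested genes, had an FPKM of 0.05 and 0.06 in the control libraries, of 3.04 and 0.96 in the model libraries, of 0.88 and 0.76 at the lower DWYG dose and of 0.59 and 0.31 at the higher. Its model libraries were the highest of the 8.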
